A study of Saccharomyces cerevisiae with 4 samples.

Results

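The genes by which an α cell of *Saccharomyces cerevisiae* makes, matures and answers mating pheromone were compared between a strain in which the gene for the cell wall mannoprotein Ccw12p was disrupted and its parent. The members were 8 genes taken by name from textbook knowledge of the pathway, with earlier results of these data known. They were the α-specific genes *MF(ALPHA)1*, *MF(ALPHA)2*, *STE3* and *SAG1*, the α-factor processing peptidases *KEX2*, *KEX1* and *STE13*, and the regulator *MCM1*. These were 8 of 5656 genes with a probe set of their own on the array, and each of the 8 had 1 such probe set. The *ccw12*Δ group consisted of 2 arrays of strain MEY12A, labelled as the CCW12 mutant. In this strain *CCW12* was disrupted with *URA3*, as the study's methods state. The wild-type (wt) group consisted of 2 arrays of the parent SEY6210, a MATα strain that carries mutant alleles of *ura3*, *leu2*, *his3*, *trp1*, *lys2* and *suc2*. The mutant shares these alleles and carries the *URA3* marker in addition. All cultures were grown in YPD with added adenine to an OD600 of 1, with no pheromone treatment named in the labels, and biotin-labelled cRNA was made from 5 µg of total RNA, each array holding a pool of independent RNA preparations.

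Haploid yeast cells have mating type **a** or α, and each type secretes a peptide pheromone that cells of the other type detect. In α cells the regulator Matα1p, bound together with the MADS-box protein Mcm1p, activates a small set of α-specific genes that code for the α-factor precursors, the receptor for **a**-factor and the α-agglutinin that sticks mating partners together. The α-factor precursor enters the endoplasmic reticulum and is cut in the late Golgi, first by the endoprotease Kex2p at pairs of basic residues, after which the carboxypeptidase Kex1p removes the basic residues left at the carboxyl end and the dipeptidyl aminopeptidase Ste13p trims the amino end.

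The values were MAS5 signals, a summary of each probe set's brightness that the authors had already scaled. The median signal of the 4 arrays lay between 117.9 and 144.4, and the highest signal on any array was 25415. The disrupted gene *CCW12* read 4260 and 3919 in *ccw12*Δ, against 24314 and 24118 in wt, 5.93-fold lower (log2 fold change -2.57, SE 0.18, adjusted p = 8.7e-04, limma with Benjamini-Hochberg adjustment over 4242 genes). The signal that remained in *ccw12*Δ, 4090 ± 241 (SD, n = 2), was still far above the minimum mean signal for testing (87.9), and where the probes lie relative to the disruption was not examined. The wt arrays differed from each other more than the mutant arrays did, with an SD of the log2 difference of 0.63 between the wt pair and 0.38 between the mutant pair. The ratio of *ACT1* 3′ to 5′ signal, a measure of RNA integrity, was 1.49 on both mutant arrays, and 2.99 and 1.38 on wt replicates 1 and 2. Genes on chromosomes II, IX and X read higher in *ccw12*Δ as whole chromosomes, with median log2 fold changes of 0.94, 0.89 and 1.06, whereas the medians of the other chromosomes ran from -0.07 to 0.20. The median over all genes tested was 0.18. The labels are not uniform in the strain name: the description of wt replicate 2 names SEY6211, and the source of both mutant samples names SEY6219.

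The labelled mating type was examined first. The 4 α-specific genes summed to signals of 19359 and 19226 in *ccw12*Δ, against 32818 and 31515 in wt. The 7 genes of the opposite type, *MFA1*, *MFA2*, *STE2*, *STE6*, *BAR1*, *AGA2* and *ASG7*, summed to 513 and 425 in *ccw12*Δ and to 370 and 357 in wt. Signals of different probe sets cannot be set against each other, so the 2 sums are read only between arrays. On wt replicate 2, the array whose description names another strain, *STE3* read 2985 against 1840 on wt replicate 1, and *STE2*, the receptor gene of **a** cells, 18.6 against 15.9. No **a**-specific gene was at 0, and only *MFA2* reached the mean signal of 87.9. *MFA2*, which codes for an **a**-factor precursor, read 271 and 261 in *ccw12*Δ and 259 and 205 in wt (log2 fold change 0.21, adjusted p = 0.706, limma). *STE2* gave 30.4 and 40.0 in *ccw12*Δ, against 15.9 and 18.6 in wt. *BAR1*, coding for the protease of **a** cells that degrades α-factor, gave 40.3 and 36.2 in *ccw12*Δ, against 1.7 and 1.2 in wt, and lies on chromosome IX. Of these 7 genes, 4 read higher on both mutant arrays than on both wt arrays and 3 overlapped. Among all genes tested 37.7% read higher in this way, and of the 4 only *MFA2* was among the genes tested. When the filter on dim genes was dropped and all 7 were tested, *BAR1* passed as higher (log2 fold change 4.74, SE 0.63, adjusted p = 0.0468, limma), 1 of 33 genes to do so among 5656, and the other 6 did not pass. *STE2* was at 1.02 in that fit (adjusted p = 0.255, limma). The part of these signals in the differences of the α-specific genes was not tested.

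The 2 genes for the α-factor precursor differed in how far they stood from wt. *MF(ALPHA)2*, the minor precursor gene, was reduced 2.75-fold in *ccw12*Δ and was the only one of the 8 members to pass the test. *MF(ALPHA)1*, the major precursor gene, read slightly lower on both mutant arrays and did not pass. In bulk cultures, fewer cells expressing a gene and less RNA per cell cannot be told apart.

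*MF(ALPHA)2* (YGL089C, chromosome VII) gave signals of 2791 and 3547 in *ccw12*Δ, against 9247 and 8124 in wt. The mutant mean was 3169 ± 534 and the wt mean 8685 ± 794 (SD, n = 2 each), and the groups lay far apart. Each mutant array was at 0.302 to 0.437 of a wt array over the 4 possible pairs. The log2 fold change was -1.46 (SE 0.23, 95% interval -1.98 to -0.94, adjusted p = 0.0164, limma), the 20th lowest of 4242 genes tested. Among those genes, 6.25% passed the test, 0.589% as lower and 5.66% as higher. Without any filter on dim genes, when 5656 genes were tested, the adjusted p of *MF(ALPHA)2* was 0.0511. It passed under the 15 other alternatives.

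*MF(ALPHA)1* (YPL187W, chromosome XVI) gave 9040 and 9340 in *ccw12*Δ, against 10432 and 11687 in wt. The groups did not overlap, but the distance was of the size of the gap between the wt arrays. The log2 fold change was -0.26 (SE 0.18, 95% interval -0.67 to 0.14, adjusted p = 0.435, limma), and the gene passed under none of the 16 alternatives. The 95% intervals of the 2 precursor genes did not overlap.

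Taken within each array, which removes the array's own scaling, the log2 ratio of *MF(ALPHA)2* to *MF(ALPHA)1* signal was -1.70 and -1.40 in *ccw12*Δ, against -0.17 and -0.52 in wt. The ratio was thus 2.29-fold lower in the mutant (difference -1.20 on the log2 scale). An exact two-sided permutation test gave p = 0.333, the smallest value that 2 arrays against 2 allow. The level of one probe set against another has no meaning here, only the change of the ratio between strains. Probe sequences were not used here, so cross-hybridization between the 2 similar transcripts was not tested.

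**Figure D1:**
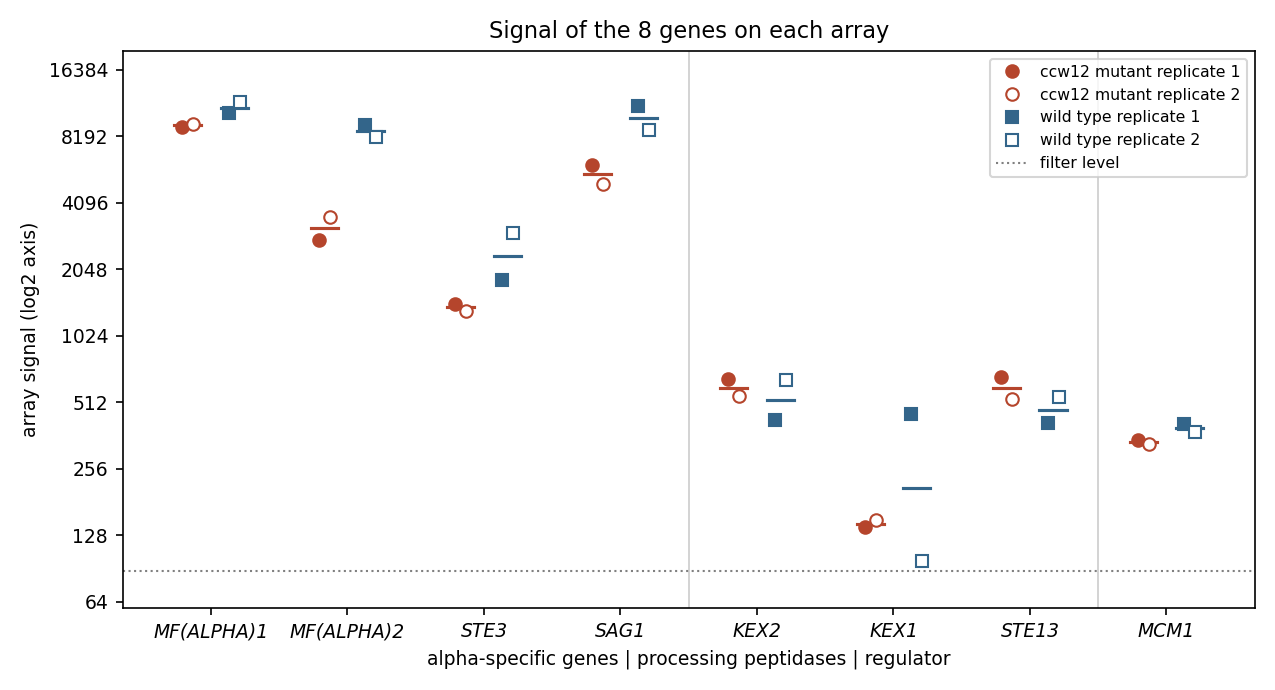
MAS5 signal (log axis) of the 8 members on each array, *ccw12*Δ left of wt for every gene, with points for arrays and bars for the means of 2 arrays. *MF(ALPHA)2* stands at 2791 and 3547 in *ccw12*Δ, below 9247 and 8124 in wt, whereas the peptidase genes overlap and *KEX1* spreads from 452 to 98 within wt.

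The surface genes of the α cell, for the receptor and the agglutinin, read lower on both mutant arrays without passing the test. *STE3* (YKL178C, chromosome XI), coding for the receptor that binds **a**-factor, gave 1432 and 1331 in *ccw12*Δ, against 1840 and 2985 in wt. The mutant arrays lay close together and the wt arrays apart. The geometric means differed 1.70-fold (log2 fold change -0.76, SE 0.31, 95% interval -1.46 to -0.06, unadjusted p = 0.0358, adjusted p = 0.185, limma). The value rested largely on wt replicate 2. Without wt replicate 1 it was -1.11 (adjusted p = 4.1e-04) and without wt replicate 2 it was -0.41, and leaving out wt replicate 1 was the only one of 16 alternatives in which *STE3* passed.

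*SAG1* (YJR004C, chromosome X), coding for α-agglutinin, a GPI-anchored wall protein that binds the agglutinin of **a** cells, gave 6096 and 5007 in *ccw12*Δ, against 11300 and 8718 in wt. The means were 5552 ± 770 in *ccw12*Δ and 10009 ± 1826 in wt (SD, n = 2 each), with no overlap. The log2 fold change was -0.85 (SE 0.22, 95% interval -1.35 to -0.34, unadjusted p = 0.00429, adjusted p = 0.0578, limma), just outside the threshold. *SAG1* was the only member on one of the 3 raised chromosomes. Its 20 nearest tested neighbours, 10 on each side, had a median log2 fold change of 0.81, and 19 of the 20 were above 0. The nearest ones, *MRX12* and *APL1*, stood at 0.71 and 1.46, and the lowest of the 20 at -0.49, above *SAG1*. When each gene was set against the median of its own chromosome on each array, *SAG1* was at -1.91 (SE 0.24, adjusted p = 0.0278, limma) and passed. It also passed without wt replicate 1 (-0.66, adjusted p = 0.0158) and without wt replicate 2 (-1.03, adjusted p = 1.1e-05), where the spread comes from fewer arrays. Over the 16 alternatives it passed in 6, with adjusted p up to 0.415.

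The neighbours of the other α-specific genes stood near the median of all genes. Around *MF(ALPHA)2* the 20 nearest tested genes had a median of 0.02 and none was as low as *MF(ALPHA)2*. The adjoining *NBP35* and *MMS2* stood at 0.52 and 0.38. Around *STE3* the median was 0.14, and none of the 20 was as low as *STE3*. *MF(ALPHA)1* differed from these, since 6 of its 20 neighbours were lower than it and their median was -0.05.

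**Figure D2:**
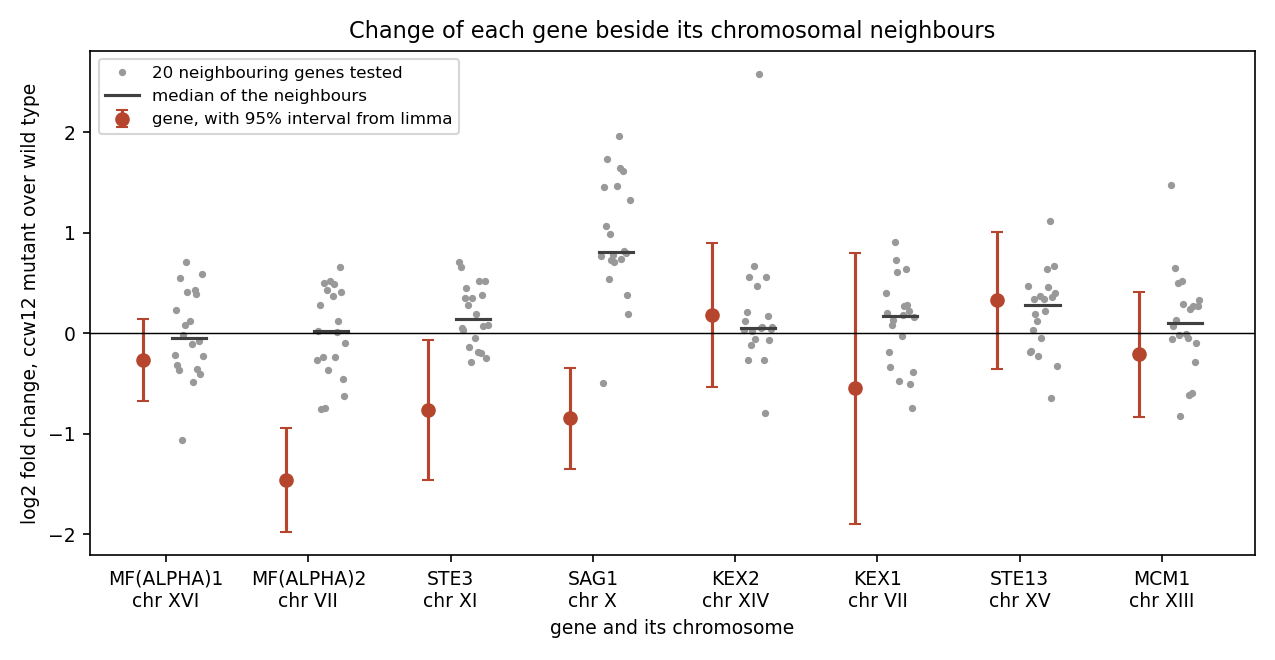
Log2 fold change (*ccw12*Δ over wt) of each member, drawn left, and of its 20 nearest tested neighbours along the chromosome, drawn right, with the median of the neighbours as a line. The neighbours of *SAG1* centre on 0.81, while *SAG1* itself is at -0.85.

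The processing peptidases showed no difference between strains beyond the spread of the arrays, and each of the 3 overlapped. *KEX2* (YNL238W, chromosome XIV), the endoprotease, gave 655 and 544 in *ccw12*Δ, against 428 and 647 in wt (log2 fold change 0.18, 95% interval -0.54 to 0.90, adjusted p = 0.778, limma). *STE13* (YOR219C, chromosome XV), the dipeptidyl aminopeptidase, gave 666 and 530 in *ccw12*Δ, against 414 and 541 in wt (log2 fold change 0.33, 95% interval -0.36 to 1.01, adjusted p = 0.565, limma). The sign of the *KEX2* value was not settled, since it was -0.12 with arrays centred on their medians and also -0.12 without wt replicate 1, whereas *STE13* stayed above 0 in all 16 alternatives. The intervals leave room for changes of up to about 1 on the log2 scale.

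*KEX1* (YGL203C, chromosome VII), the carboxypeptidase, could not be placed. It gave 139 and 150 in *ccw12*Δ, against 452 and 98 in wt, so that both mutant arrays lay between the wt arrays. The wt arrays differed by 2.20 on the log2 scale, and the log2 fold change was -0.55 (SE 0.59, 95% interval -1.89 to 0.80, adjusted p = 0.635, limma). It turned to 0.56 without wt replicate 1 and to -1.65 without wt replicate 2. Wt replicate 1 is also the array with the *ACT1* 3′ to 5′ ratio of 2.99, whose part in the *KEX1* value was not tested.

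*MCM1* (YMR043W, chromosome XIII), whose product acts with Matα1p on the α-specific genes and with other partners elsewhere, gave 345 and 331 in *ccw12*Δ, against 409 and 375 in wt. Both mutant arrays were lower, by a log2 fold change of -0.21 (SE 0.27, 95% interval -0.83 to 0.41, adjusted p = 0.693, limma), which did not pass here or in any of the 16 alternatives. The probe sets for *MATALPHA1* list several genes and were not used here.

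Counted over all members, 0 of 8 passed as higher (against 5.66% of all genes tested), 1 of 8 passed as lower (against 0.589%) and 7 did not pass. *MF(ALPHA)2* had been singled out as lower on these same arrays before, so the counts are no independent evidence of its direction. An unadjusted p under 0.05 with a lower value was found for 3 of 8, against 4.08% of all genes tested, and with a higher value for 0 of 8, against 18.2%. Both mutant arrays lay below both wt arrays for 5 of 8, where 15.8% of all genes tested did so, and above them for 0 of 8, where 37.7% did so. These 5 were the 4 α-specific genes and *MCM1*, and the 3 that overlapped were the peptidases. A mean change of at least 2-fold with all 4 array pairs in one direction was met by *MF(ALPHA)2* alone, and by 2.03% of all genes tested as lower and 10.3% as higher. The median log2 fold change was -0.41 over the 8 members, -0.80 over the α-specific genes and 0.18 over the peptidases, beside 0.18 over all genes tested. The 3 peptidase genes were therefore spread around the array-wide median, and the 4 α-specific genes ran from -1.46 to -0.26, all below it.

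**Figure D3:**
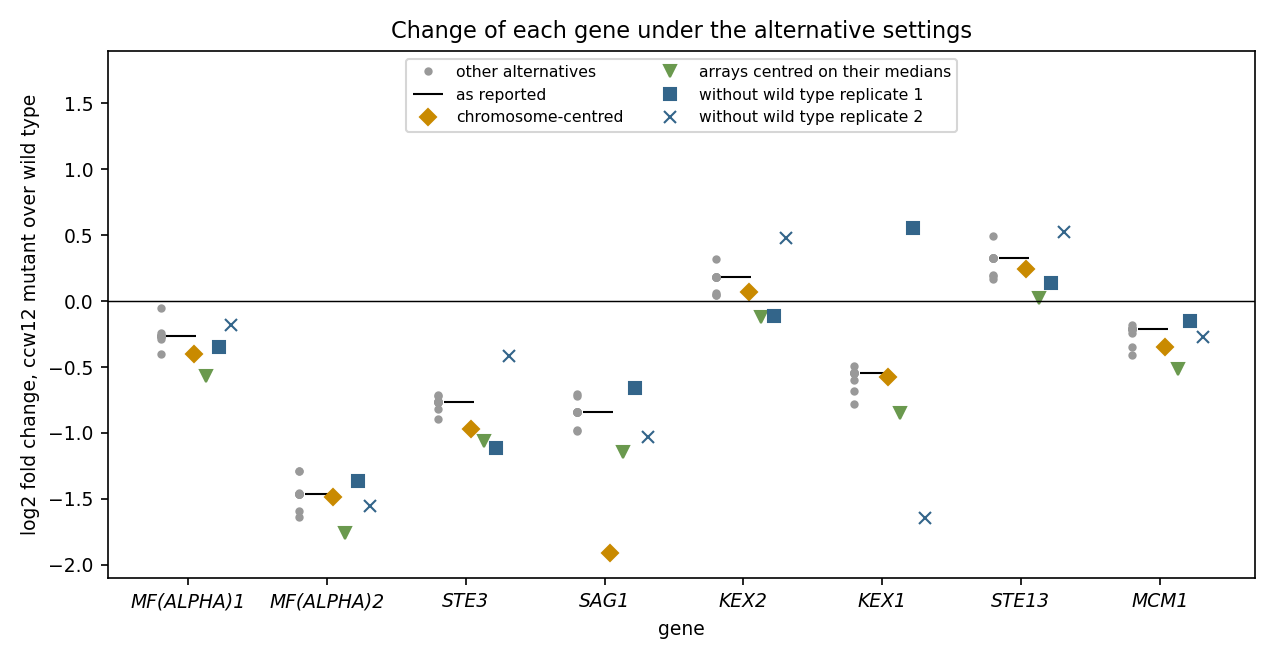
Log2 fold change (*ccw12*Δ over wt) of each member under the main setting (dash) and the alternatives. Diamonds stand for chromosome centring and triangles for arrays centred on their medians. Squares and crosses stand for wt replicates 1 and 2 left out, and grey dots for the other alternatives. The symbols do not show whether a value passed limma. *MF(ALPHA)2* stays between -1.76 and -1.29, while *KEX1* runs from -1.65 to 0.56 and *KEX2* crosses 0.

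Genes that α-factor or **a**-factor induces in haploid cells through the transcription factor Ste12p were lower in *ccw12*Δ in 4 cases. Of 12 such genes 8 were bright enough to be tested, of which 4 passed as lower (against 0.589% of all genes), 0 passed as higher and 4 did not pass, with a median of -1.25. Several of these genes had been singled out on these same arrays before, so the list is no independent evidence of its direction. *FIG1*, needed for mating-induced calcium uptake and cell fusion, gave 176 and 211 in *ccw12*Δ, against 466 and 643 in wt (log2 fold change -1.51, SE 0.30, adjusted p = 0.0298, limma). *PRM1*, coding for a membrane protein of cell fusion, gave 231 and 182 in *ccw12*Δ, against 462 and 671 in wt (log2 fold change -1.44, SE 0.31, adjusted p = 0.0334, limma). *AGA1*, the anchorage subunit of **a**-agglutinin, gave 2202 and 2265 in *ccw12*Δ, against 5391 and 4988 in wt (log2 fold change -1.22, SE 0.23, adjusted p = 0.0277, limma). *PRM4*, a pheromone-regulated membrane protein gene, gave 161 and 185 in *ccw12*Δ, against 496 and 356 in wt (log2 fold change -1.28, SE 0.30, adjusted p = 0.0414, limma).

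Among the 12, both mutant arrays were below both wt arrays for 11. Among the 8 bright enough to be tested this held for 7, against 15.8% of all genes tested. *CIK1* was the exception, with 146 and 177 in *ccw12*Δ and 127 and 175 in wt. *FUS1*, the classical reporter of the pathway, gave 195 and 192 in *ccw12*Δ, against 412 and 317 in wt, and did not pass (log2 fold change -0.90, adjusted p = 0.0977, limma). The number passing as lower depended on single arrays and on the processing. It fell when either mutant array was left out and rose when either wt array was left out. In such fits only 1 group gives a spread. The median was -1.19 without mutant replicate 1, -1.20 without wt replicate 1 and -1.13 without wt replicate 2. Without mutant replicate 2 it was -1.21, over 10 genes tested. With each gene set against its chromosome 1 passed as lower, as did 2 of the 4 α-specific genes, against 15 of all 4242 genes tested. Without the filter on dim genes 0 passed as lower, against 6 of 5656.

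Of the signalling genes themselves, from the G protein through the kinase cascade to its targets, *FAR1* alone passed with all 4 arrays. Of 19 genes 16 were tested, of which 1 passed as higher (against 5.66% of all genes), 0 passed as lower and 15 did not pass. The median was 0.09, beside 0.18 over all genes. With each gene set against its chromosome 15 genes were tested and their median was -0.26, beside 0.00 over all genes. The number passing also moved with single arrays. The median was 7.2e-04 without mutant replicate 1 and 0.20 without mutant replicate 2. It was 0.03 without wt replicate 1 and 0.19 without wt replicate 2. *FAR1*, coding for the factor that arrests the cell cycle and orients growth during mating, gave 2241 and 2402 in *ccw12*Δ, against 974 and 1016 in wt (log2 fold change 1.22, SE 0.27, adjusted p = 0.0348, limma). *STE12*, the transcription factor of the pathway, gave 183 and 149 in *ccw12*Δ, against 398 and 228 in wt, and did not pass (log2 fold change -0.87, adjusted p = 0.169, limma).

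The route of the precursor and of its peptidases through the secretory pathway was examined with 2 further lists. For entry into and export from the endoplasmic reticulum, 0 of 12 genes tested passed in either direction (against 6.25% of all genes). Their median was -0.04, beside 0.18 over all genes. *SEC61*, coding for the channel of the translocon, gave 4769 and 4598 in *ccw12*Δ, against 7172 and 5485 in wt. *KAR2*, coding for the Hsp70 chaperone of the compartment, gave 10126 and 8526 in *ccw12*Δ, against 5440 and 6908 in wt, and lies on chromosome X. For the proteins that hold Kex2p and Ste13p in the late Golgi or return them to it, 2 of 10 tested passed as higher (against 5.66% of all genes), 0 as lower and 8 did not pass, with a median of 0.61 beside 0.18 over all genes. With each gene set against its chromosome none passed, against 10 higher and 15 lower of all 4242 genes tested, and the median was 0.39. *PEP8*, the retromer subunit also called *VPS26*, gave 259 and 308 in *ccw12*Δ, against 106 and 78.1 in wt (log2 fold change 1.64, SE 0.30, adjusted p = 0.0241, limma). *RAV1*, coding for a subunit of a complex that assembles the vacuolar proton pump and also known for the sorting of Kex2p, gave 382 and 308 in *ccw12*Δ, against 109 and 134 in wt (log2 fold change 1.51, SE 0.29, adjusted p = 0.0277, limma).

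Proteins that act with Mcm1p at other promoters, and the cell cycle genes that Mcm1p controls, were taken as the regulator's wider circle. Of the partners, 1 of 6 tested passed as higher (against 5.66% of all genes), 0 as lower and 5 did not pass, the one being *FKH1*, a forkhead factor, with 564 and 678 in *ccw12*Δ, against 192 and 295 in wt (log2 fold change 1.38, SE 0.32, adjusted p = 0.0411, limma). Of the cell cycle targets, 2 of 9 tested passed as higher (against 5.66% of all genes), 0 as lower and 7 did not pass. They were *CDC6*, needed to license replication origins, with a log2 fold change of 1.92 (SE 0.46, adjusted p = 0.0446, limma), and *BUD4*, needed for axial budding, with 1.47 (SE 0.34, adjusted p = 0.0415, limma). *BUD4* has 6 single-gene probe sets, of which the brightest was taken. With the mean over probe sets *BUD4* was under the filter, and 1 of 8 targets tested passed as higher, beside 234 of all 4242 genes.

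All 6 genes of these lists that passed as higher, *FAR1*, *PEP8*, *RAV1*, *FKH1*, *CDC6* and *BUD4*, lie on chromosome IX or X. With each gene set against the median of its chromosome on each array their log2 fold changes were between 0.15 and 0.85, and none passed (adjusted p between 0.461 and 0.799, limma). In that setting only 10 of all 4242 genes tested passed as higher. The counts and medians of these lists also moved with single arrays. With all 4 arrays the medians of the partners and the cell cycle targets were 0.45 and 0.42. Without wt replicate 2 the medians were 0.75 for the Golgi genes, 0.82 for the partners and 0.58 for the cell cycle targets. For the endoplasmic reticulum genes, of which 13 were then tested, the median was -0.10, beside 0.25 over all genes. Without wt replicate 1 the medians were 0.34, 0.08, 0.47 and 0.03 in the same order, beside 0.13 over all genes. They were 0.69, 0.47, 0.60 and -0.03 without mutant replicate 1, and 0.51, 0.51, 0.41 and -0.12 without mutant replicate 2. Among the pheromone-induced genes that passed as lower, *FIG1* lies on chromosome II and was at -2.43 on that scale (adjusted p = 0.0182, limma).

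**Figure D4:**
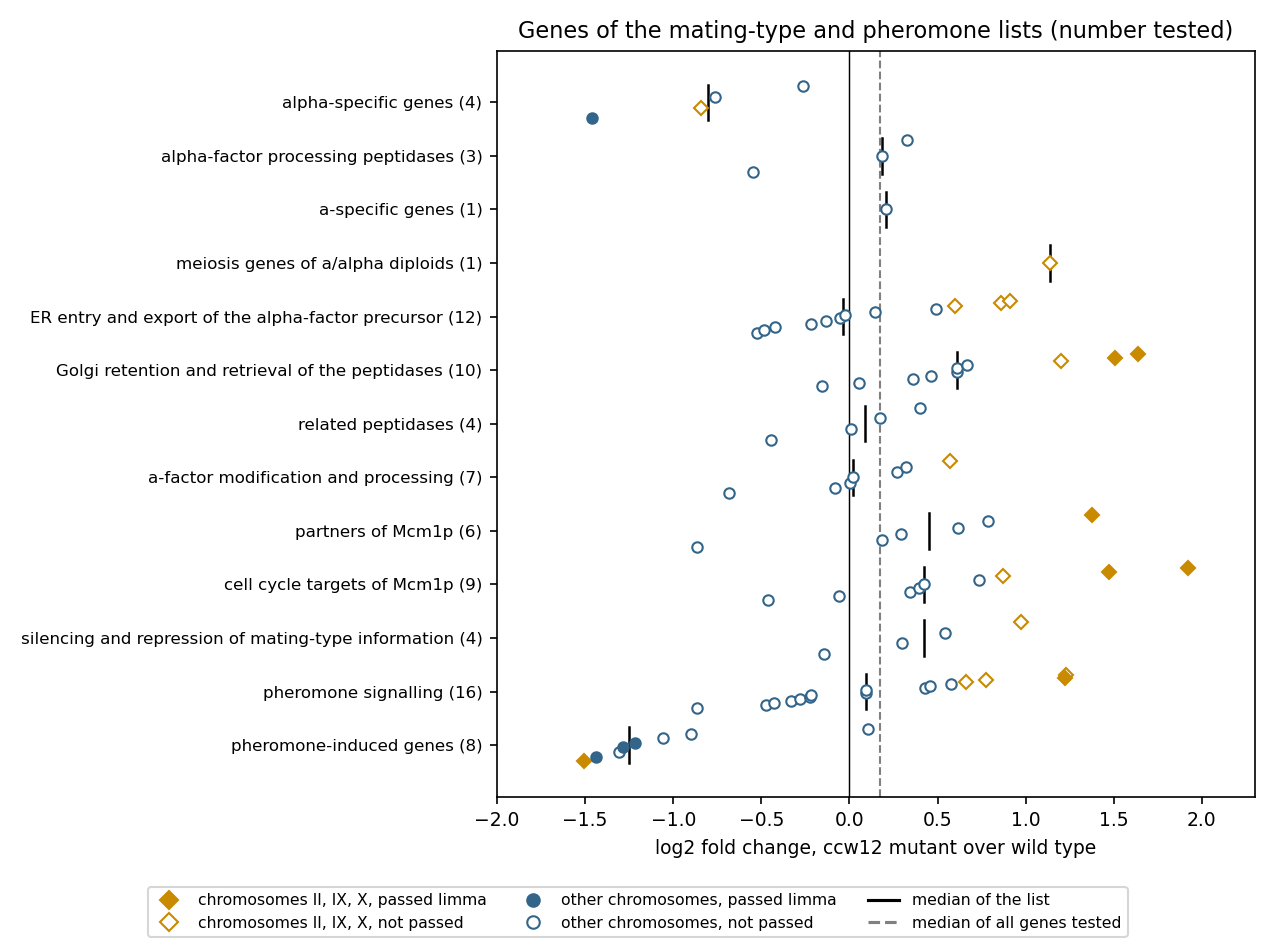
Log2 fold change (*ccw12*Δ over wt) of each tested gene of the mating-type and pheromone lists, with diamonds for chromosomes II, IX and X, circles for the others, and filled symbols for genes that passed limma after adjustment. The pheromone-induced genes have a median of -1.25 and the α-specific genes one of -0.80, and the filled symbols right of 0 are all diamonds.

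The genes whose 4 arrays followed each precursor gene most closely were found from the root mean square distance of the mean-centred log2 signals over the 4 arrays, for all 4242 genes tested. Nearest to *MF(ALPHA)2* were *RPS22B*, a ribosomal protein gene (distance 0.07), *FLO11*, coding for a flocculin of the cell surface (0.13), and *PRM4* (0.15). *RPS22B* gave 2295 and 2645 in *ccw12*Δ, against 7782 and 6747 in wt (log2 fold change -1.56, adjusted p = 0.0142, limma). *FLO11* gave 258 and 289 in *ccw12*Δ, against 969 and 782 in wt (log2 fold change -1.67, adjusted p = 0.0211, limma). Nearest to *MF(ALPHA)1* were *PUS7*, *SMF3* and *YDR341C*, at distances of 0.019, 0.019 and 0.023, none of which passed. With 4 arrays in 2 groups such likeness is mostly a like difference between the strains.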

How the data were processed

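Deposited values were MAS5 signals, a linear intensity per probe set that the authors produced with Affymetrix software, one column per array, already scaled to a target that neither labels nor methods name. Probe sets with 1 gene in the platform annotation were kept (6504 of 9335), and the brightest over the 4 arrays stood for a gene. Signals were floored at 0.1 and log2-transformed, genes under the 25th percentile of mean log2 signal (a signal of 87.9) were left out, and 4242 genes were tested with limma 3.58.1 in R 4.3.3 (lmFit, eBayes with trend, two-sided) with Benjamini-Hochberg adjustment at 0.05. The p-values rest on the spread between 2 arrays a group, which limma combines with the spread of other genes of like brightness. The prior from those genes had 6.78 degrees of freedom, against 2 residual ones. A gene's SE is therefore not the spread of its own arrays alone. Where 1 array was left out, only the group that kept 2 arrays gave a spread. A fold rule after the study's methods (mean of the 4 log2 ratios at least 1 in size, all in one direction) was applied without the array calls. Scripts were tested on simulated data. Alternatives covered scaling, filter, floor, chromosome centring, the replicate block and each array left out. Named were the members, *CCW12*, the **a**-specific genes, up to 2 genes a list with the largest change in each direction among those that passed, and the 3 genes most like each precursor gene. *AGA1*, *FUS1*, *CIK1*, *STE12*, *SEC61*, *KAR2*, *PRC1*, *YPS1* and *IME1* were named after their values were seen. The members and lists were chosen with earlier results of these data known. Gene names, chromosomes and neighbours came from RefSeq's R64 table.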

Additional observations from a re-analysis of the deposited data

How the results depend on the processing

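The counts of genes called and of members called lower both moved with the processing, while no member was called higher in any alternative. Against 240 higher and 25 lower, quantile normalization gave 99 higher, arrays centred on their medians 24 higher and 14 lower, centring on genes outside chromosomes II, IX and X 52 and 14, chromosome centring 10 and 15, and no filter 33 and 6. The median over all genes was 0.18 in the main setting, 0.00 with chromosome centring and -0.12 with median-centred arrays. Deviations of same-numbered arrays correlated at -0.15, which gave no sign that the replicate numbers pair the arrays. With 2 arrays a group this value cannot exclude a pairing. With the replicate block the counts were 476 higher and 115 lower, and with the crossed pairing, added after seeing the data, 445 and 88. Leaving out 1 array gave 49 to 960 higher and 14 to 425 lower. Members called lower, 1 in the main setting, were 0 with no filter, 2 with chromosome centring, 2 with the filter at the 50th percentile, 2 with the replicate block, 2 with the crossed pairing and 1 to 3 without 1 array. The second was *SAG1*, with adjusted p = 0.00346 under the block (limma). Genes past the fold rule, 525 in the main setting, were 232 with chromosome centring, 349 with the 50th percentile filter and 473 to 842 without 1 array. Members past it, 1 in the main setting, were 3 with arrays centred on their medians, 2 with chromosome centring and 1 to 3 without 1 array. *KEX2* (0.18) reversed to -0.12 with median-centred arrays and ran from -0.12 (without wt replicate 1) to 0.48 (without wt replicate 2) with 1 array left out, and *KEX1* (-0.55) ran from -1.65 (without wt replicate 2) to 0.56 (without wt replicate 1). The cause was not tested. The signs of the other 6 members held under all alternatives run. Taking another single-gene probe set gave no value, since each member has 1. Whether bright signals such as those of *MF(ALPHA)1* stay linear was not tested, and 2 arrays a group limit every interval.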

Other observations

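The enzymes that lipid-modify and cut **a**-factor, the pheromone of the other mating type, gave 0 of 7 tested genes past the threshold in either direction, with a median log2 fold change of 0.02 (*ccw12*Δ over wt), beside 0.18 over all genes. Peptidases related to those that mature α-factor likewise gave 0 of 4. Among all genes tested 6.25% passed in either direction. *PRC1*, the vacuolar carboxypeptidase Y, read 3579 and 3627 in *ccw12*Δ, against 2910 and 3510 in wt, and *YPS1*, a yapsin of the cell surface, read 1834 and 1571 in *ccw12*Δ, against 916 and 1799 in wt. Of the genes that silence or repress mating-type information, 0 of 4 tested passed (against 6.25% of all genes). Meiosis genes, which haploid cells keep off, were mostly under the filter on dim genes: 1 of 7 was above it, *IME1*, the inducer of meiosis, with 230 and 168 in *ccw12*Δ, against 80.9 and 98.3 in wt (log2 fold change 1.14, adjusted p = 0.0659, limma). *IME1* lies on chromosome X and stood at 0.07 with chromosome centring.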
